A study of Xenopus tropicalis with 16 samples.

Results

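The 250 genes described here rose at both developmental intervals in control explants of Xenopus tropicalis ectoderm, from gastrula to neurula and again from neurula to tailbud. They were chosen by the rise of their levels in the control libraries, while the read filter and the scaling used the knockdown libraries as well. Levels are given as CPM, the count of a gene per 1000000 fragments assigned to genes, scaled with the TMM factors of edgeR. The means of the control libraries at the 3 stages, each plus 1 CPM, gave a log2 step for each interval, and both steps had to reach 1. Of 14373 genes in the files, 11997 had at least 1 read in at least 12 of the 16 libraries. Of these, 451 passed both thresholds, and the 250 with the highest smaller step were kept. The smaller step ran from 4.32 for the first gene to 1.32 for the last, and the first gene left out also stood at 1.32. All 250 passed the read filter because the rule required it. The filter removed 14 genes that passed both thresholds, and 5 of them would have ranked among the 250.

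The explants were animal caps, pieces of prospective ectoderm cut from the top of a blastula. Embryos of every group had been injected with a morpholino, an antisense oligomer. The controls received a control morpholino (CoMo). The knockdown (KD) embryos received morpholinos against Suv4-20H1 and Suv4-20H2, the enzymes that convert monomethylated lysine 20 of histone H4 to its dimethylated and trimethylated states. Explants were taken at stages NF10 (gastrula), NF16 (neurula) and NF24 (tailbud). Each condition had 3 libraries at NF10, 2 at NF16 and 3 at NF24. The morpholinos block translation, so the amount of target RNA would not show whether they worked. Each library was made from a pool of caps, so the spread between libraries is one between pools. Total RNA depleted of ribosomal RNA was sequenced, and between 10692685 and 40286023 fragments per library were assigned to genes.

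In culture the animal cap forms the mucociliary epidermis of the larva, without the signals that induce neural tissue or mesoderm. An inner layer supplies multiciliated cells, ionocytes and small secretory cells that move into the outer layer of mucus-producing cells. Transcripts that keep accumulating through such a programme can encode products of the differentiated cells, such as parts of cilia, mucins or keratins. Whether the 250 genes are of this kind was not analysed here, because 0 of the 14373 identifiers matched the RefSeq symbol table used here. The label of the tissue could for the same reason not be checked against marker genes. The genes are therefore described by their levels, and 4 are named by identifier.

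In the controls the median member rose from 0.673 CPM at NF10 to 12.2 CPM at NF16 and 56.4 CPM at NF24. These values chose the genes and are given as a description. The median step was 2.47 on the log2 scale for the first interval and 1.90 for the second, and the first step was the larger one for 163 of the 250. At NF10 140 members had a control mean under 1 CPM, and 80 had no reads in at least 1 of the 6 NF10 libraries. For such genes the added 1 CPM makes the first step smaller than the ratio of the levels. At NF24 control means ranged from 7.47 to 8168 CPM. They reached 100 CPM for 84 members and 1000 CPM for 10. The 2 NF16 controls both lay above the 3 NF10 controls for 249 members. The 3 NF24 controls all lay above the NF16 controls for 234, and both held for 233, where both held for 9.75% of all genes. This separation follows from the choice of genes.

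As a group the members went from a trace to a visible fraction of the RNA. Summed over all 250, their level in the CoMo libraries was 911, 1017 and 878 CPM at NF10, 13450 and 13575 CPM at NF16, and 56314, 54138 and 43431 CPM at NF24. The 3 stages did not overlap. In KD the sums were 905, 936 and 1337 CPM at NF10, 11867 and 4863 CPM at NF16, and 51883, 42537 and 36560 CPM at NF24. Both NF16 KD sums lay below both controls, and replicate 2 lay far below replicate 1. For replicate 1 this order rests on the most abundant members. With a set of 10 abundant members left out, the NF16 sums were 6707.7 and 6241.3 CPM in CoMo. In KD they were 6439.5 CPM in replicate 1, between the controls, and 2678.5 CPM in replicate 2. The 10 most abundant members made up between 38.4% and 54.5% of the sum in any library. The median member shows the same order as the full sums. It stood at 13.4 and 10.2 CPM in the NF16 controls and at 4.61 and 2.57 CPM in the NF16 KD libraries, and in bulk RNA fewer cells of a type and less RNA per cell cannot be told apart.

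**Figure D1:**
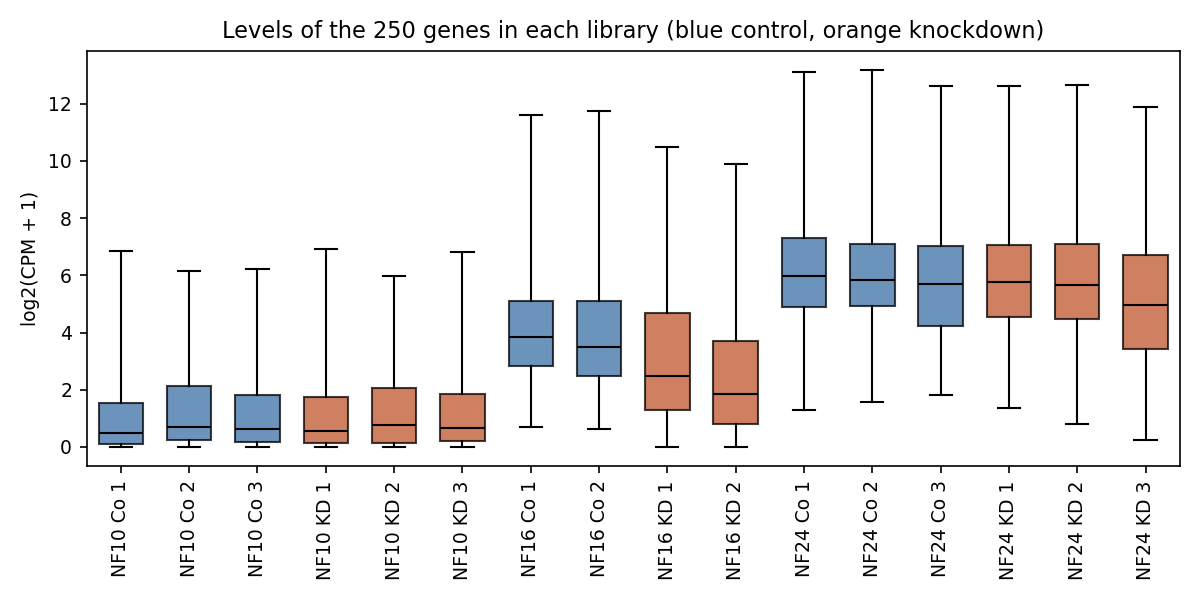
Levels of the 250 genes in each of the 16 libraries, as log2(CPM + 1). Boxes span the middle 50% of the genes with the median as a line, and whiskers reach the lowest and highest gene. The NF16 KD medians (4.61 and 2.57 CPM) lie below the NF16 controls (13.4 and 10.2 CPM), and NF24 KD replicate 3 has the lowest NF24 median, 30.1 CPM.

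The first comparison asked whether the same genes rise in the KD explants, whose levels did not enter the steps of the rule. The comparison is not wholly independent of the choice, because the read filter asked for reads in at least 4 of the 8 KD libraries and the scaling used all 16. Members rose at both intervals, but unevenly. From NF10 to NF16 the quasi-likelihood test of edgeR, at an adjusted p under 0.05, called 128 of the 250 members (51.2%) higher in KD, where 17.2% of all genes tested were called higher. From NF16 to NF24 206 members (82.4%) rose, against 14.9% of all genes. At the first interval 2 members fell, against 17.1% of all genes called lower, and at the second 0 fell, against 13.6% (0 also at an unadjusted p under 0.05). A rise at both intervals was called for 98 members (39.2%), against 3.98% of all genes. A further 108 were called at the second interval but not the first, 30 at the first but not the second, and 14 at neither. A missing call does not by itself mean that a gene did not rise. The log2 change was positive for 223 members at the first interval, against 49.7% of all genes, and for 249 at the second, against 52.2%. At the first interval it was negative for 27 members. The NF16 KD libraries enter both intervals, in opposite places. By the libraries themselves, both NF16 KD libraries lay above all NF10 KD libraries for 173 members, against 29.9% of all genes. All NF24 KD libraries lay above both NF16 KD libraries for 218, against 30.9%, and both orders held for 150, against 10.5%.

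The counts depend on the NF16 KD pair, which is the smallest group. Without NF16 KD replicate 1, 37 members were called higher from NF10 to NF16 (6.87% of all genes) and 27 at both intervals. Without NF16 KD replicate 2, 53 were called higher from NF16 to NF24 (1.53% of all genes) and 9 at both. In these fits the single remaining library is assumed to vary like the other group. The share of all genes called at both intervals was not obtained for them. Their counts at both intervals can therefore not be set against a background.

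The size of the steps in KD differed from that in the controls in a like manner for most members. With the same formula, the median KD step was 1.28 from NF10 to NF16, where the control median was 2.47. It was 2.95 from NF16 to NF24, where the control median was 1.90. The first step was smaller in KD than in the controls for 209 members, and the second was larger for 201. The NF16 KD mean enters both KD steps in opposite places, as the NF16 control mean does in the control steps. A low NF16 KD mean therefore makes the first step smaller and the second larger, so these counts are not separate observations. The matching shares of all genes were not obtained. The control steps were selected to be high and the KD steps were not, so a KD step below the control step is partly built in. A KD step of at least 1 was seen for 142 members at the first interval, against 20.6% of all genes, and for 238 at the second, against 21.7%. A step of at least 1 at both intervals was seen in KD for 130 members (52%), against 6.4% of all genes. The other members fell short at 1 interval only. In 108 the first step was below 1, in 12 the second, and in 0 both. The first KD step was negative for 27 members and the second for 1.

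**Figure D2:**
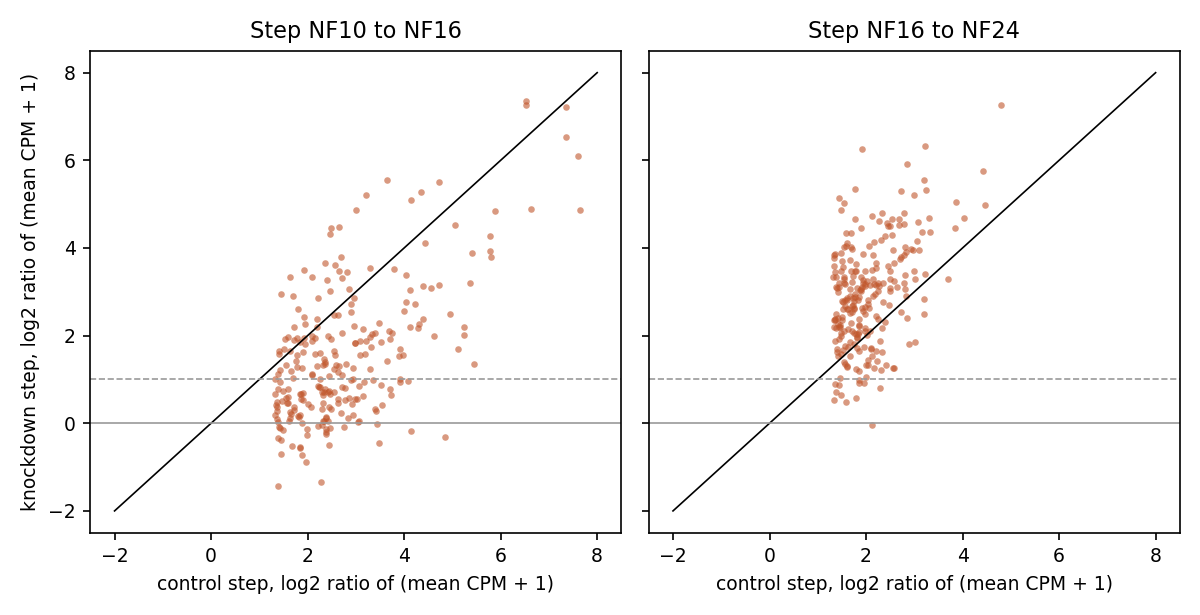
Steps of the 250 genes as log2 ratios of (mean CPM + 1), controls on the horizontal axis and KD on the vertical axis, for each interval. The diagonal marks equal steps, the solid grey line 0 and the dashed line 1. Most points lie under the diagonal for NF10 to NF16 (209 of 250) and above it for NF16 to NF24 (201 of 250).

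Read as a share of the tailbud level, the median member had reached 24.9% of its NF24 mean at NF16 in the controls and 9.63% in KD. The rule limits the control share, whose highest value was 39.9%, and does not limit the KD share, which ran from 0% to 103%. The KD share was the lower one for 203 of 250 members. It rests on the same NF16 and NF24 means as the second step, so this is no separate observation. Taken library by library against the NF24 mean of the same condition, the median share was 25.2% and 21.0% in the NF16 controls, and 12.4% and 6.44% in the KD replicates 1 and 2. The KD libraries thus both lay under the controls in this measure.

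**Figure D3:**
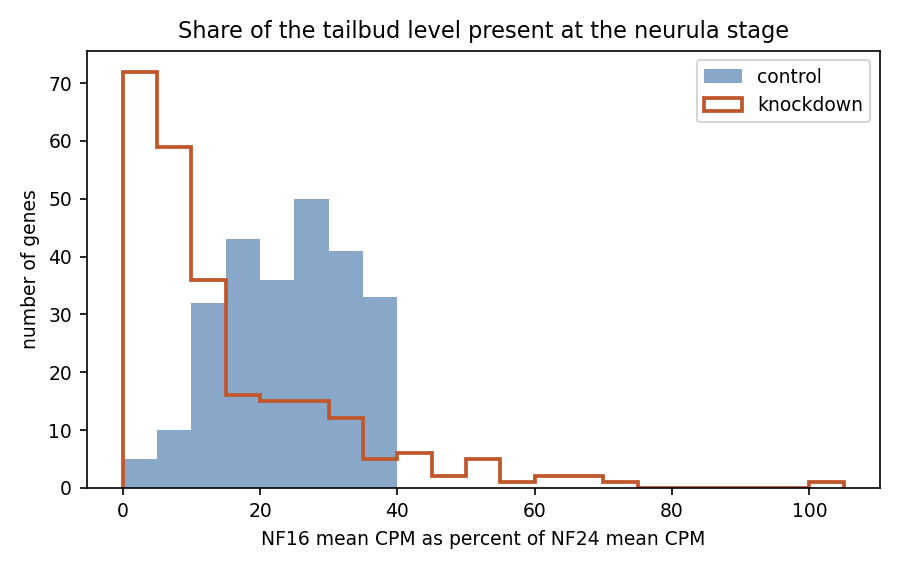
Number of the 250 genes by the NF16 mean as a percentage of the NF24 mean, for controls (filled) and KD (outline), in bins of 5 percentage points. The control distribution ends at 39.9%, a limit set by the choice of genes, with a median of 24.9%. In KD the median is 9.63% and single genes reach 103%.

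A pair of identifiers stands for the abundant end of the group, by a rule that took the highest NF24 KD levels among members rising at both intervals in KD. Xetrov90028526m.g was the most abundant member. Its control levels were 10.6, 18.6 and 17.7 CPM at NF10, then 3095 and 3414 CPM at NF16, then 8844, 9373 and 6285 CPM at NF24. In KD it stood at 13.1, 19.1 and 17.2 CPM, then at 1446 and 952 CPM, then at 6257, 6392 and 3818 CPM. The KD libraries of the 3 stages did not overlap, and both NF16 KD libraries lay below both NF16 controls. In KD the gene rose from NF10 to NF16 by a log2 change of 6.19 ± 0.40 (approximate SE; adjusted p 0.000836 by edgeR) and by 2.17 from NF16 to NF24 (approximate SE 0.44, adjusted p 0.0120 by edgeR). Without NF16 KD replicate 2 the second change was 1.89 and no longer passed the threshold (adjusted p 0.0765 by edgeR). Against the controls it was lower at NF16, by a log2 change of -1.45 (approximate SE 0.37, adjusted p 0.0238 by edgeR). At NF24 the change was -0.60 (adjusted p 0.507 by edgeR).

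Xetrov90022696m.g differed between the replicate numbers at NF10. Its CoMo values there were 83.2, 6.92 and 6.59 CPM, and its KD values were 57.7, 7.08 and 4.79 CPM. Replicate 1 stood apart in both conditions. The NF16 controls held 515 and 401 CPM, and the NF16 KD libraries 387 and 170 CPM. The NF24 controls held 3114, 4223 and 2169 CPM, and the NF24 KD libraries 2715, 3039 and 2004 CPM, so the conditions overlapped at NF24. In KD this gene rose by 3.61 from NF10 to NF16 (approximate SE 1.00, adjusted p 0.0261 by edgeR) and by 3.18 from NF16 to NF24 (approximate SE 0.49, adjusted p 0.00699 by edgeR). The first change did not pass the threshold without either NF16 KD library, at 2.88 without replicate 1 (adjusted p 0.165 by edgeR) and 4.1 without replicate 2 (adjusted p 0.0668 by edgeR). It did not pass without NF10 KD replicate 2 either, at 3.19 (adjusted p 0.0605 by edgeR). Without NF10 KD replicate 1, the high library, it was 5.49. KD and CoMo did not differ past the threshold at any stage for this gene, with an adjusted p by edgeR of 0.9999 at NF10, 0.248 at NF16 and 0.704 at NF24.

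**Figure D4:**
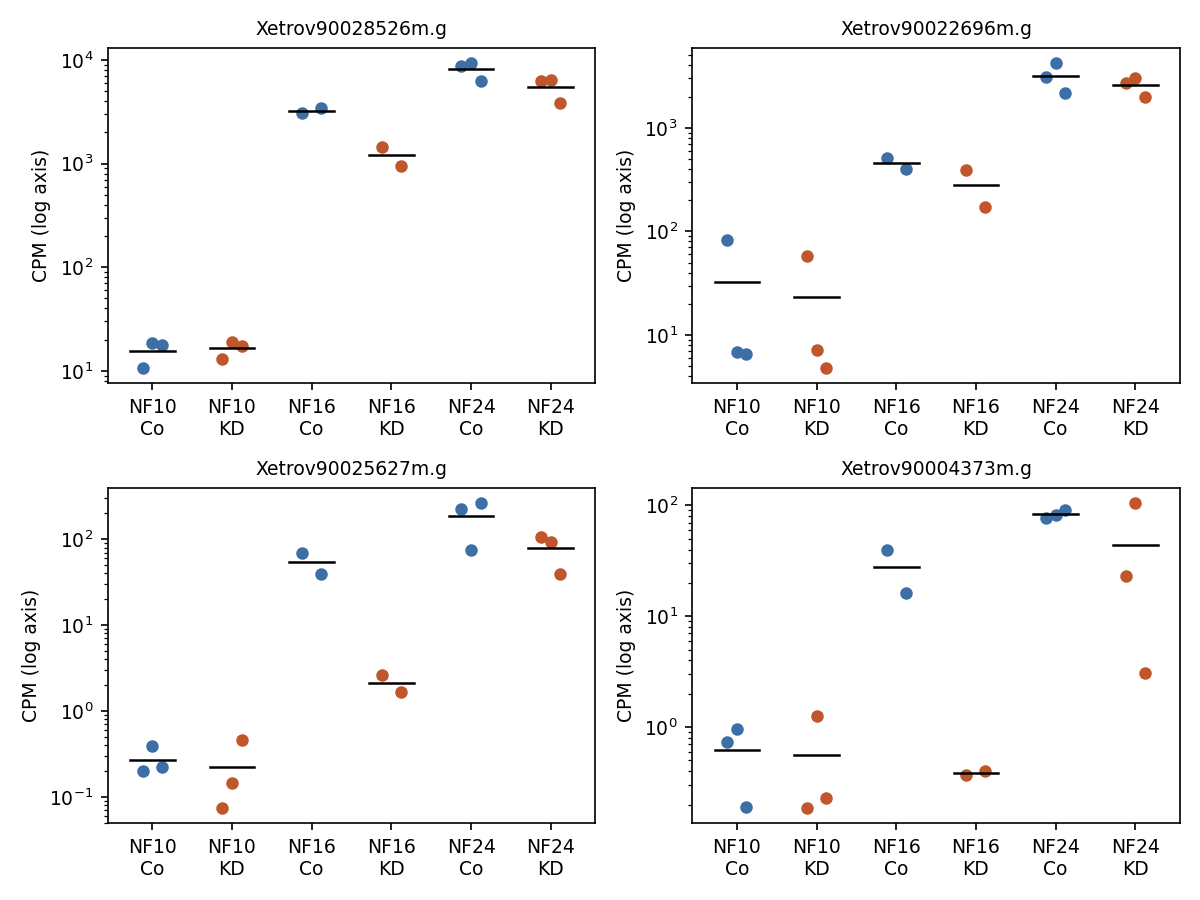
CPM of the 4 named genes in every library on a log axis, controls in blue and KD in orange, with the group mean as a line. The upper pair rises stage by stage in both conditions. The lower pair lies under 3 CPM in the NF16 KD libraries while the NF16 controls lie between 16.3 and 69.6 CPM.

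The second comparison asked which members the KD changed within each stage. Its control libraries are those that chose the members, so it is no independent test of them. At NF16 116 members (46.4%) were lower in KD at an adjusted p under 0.05 by edgeR, against 12.9% of all genes. In the other direction, 6 members (2.4%) were higher, against 7.97% of all genes. The log2 changes of the 116 ran from -9.40 to -1.14, and for 54 of them the change was below -3. Both KD libraries lay below both controls for 177 members (70.8%), against 33.3% of all genes, and above them for 10 (4%), against 31.5%. Without NF16 CoMo replicate 1 the calls dropped to 67 lower members, against 6.44% of all genes, and 0 higher, against 1.35%. With all 6 groups in one fit 80 members were lower, against 8.91%, and 0 were higher, against 6.37%. The count of higher members moved most with the library left out. It was 31 (12.4%) without NF16 KD replicate 2, against 10.9% of all genes, with 112 lower, against 14.5%. It was 2 without NF16 CoMo replicate 2, against 3.73%, and 4 without NF16 KD replicate 1, against 10.3%. By calls, the smaller share of higher members than of all genes was thus not seen without NF16 KD replicate 2. That fit leaves 1 KD library, so it cannot show that the smaller share rests on replicate 2. By levels, replicate 1 also had few members above both controls, 52, against 43% of all genes. Below both controls it had 180 members, against 43%.

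The genes named as lower than the controls at NF16 in KD had the smallest p among such members of at least 5 CPM. Xetrov90025627m.g stood at 69.6 and 39.5 CPM in the NF16 controls and at 2.61 and 1.69 CPM in KD, from 49 and 21 counts. The log2 change was -4.65 ± 0.46 (approximate SE; adjusted p 0.000962 by edgeR). The KD libraries had nonetheless left the gastrula level, which was 0.0747, 0.145 and 0.459 CPM in the NF10 KD libraries. In KD this gene was called higher at both intervals. It rose by 3.19 from NF10 to NF16 (adjusted p 0.0358 by edgeR) and by 5.16 from NF16 to NF24 (adjusted p 0.0061 by edgeR). At NF24 the controls stood at 225, 75.8 and 265 CPM and the KD libraries at 106, 92.3 and 39.2 CPM. The groups overlapped there, and the change of -1.28 did not pass the threshold (adjusted p 0.468 by edgeR).

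Xetrov90004373m.g stood at 39.5 and 16.3 CPM in the NF16 controls and at 0.373 and 0.402 CPM in KD, from 7 and 5 counts. The change was -6.16 (approximate SE 0.61, adjusted p 0.00102 by edgeR). The NF10 KD libraries had 0.187, 1.26 and 0.229 CPM, so the NF16 KD values lay within the gastrula range. At NF24 the controls were close together at 76.6, 81.6 and 91.1 CPM. The KD libraries were spread from 3.1 CPM in replicate 3 over 23.3 CPM in replicate 1 to 105 CPM in replicate 2. In KD the gene rose by 6.77 from NF16 to NF24 (approximate SE 1.55, adjusted p 0.0174 by edgeR), while its change from NF10 to NF16 was -0.50 (adjusted p 0.763 by edgeR).

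The 116 members lower at NF16 were followed through the other libraries, a grouping formed after that call was seen. At NF16 the median of these genes was 17.1 CPM in CoMo replicate 1 and 10.1 CPM in replicate 2, against 2.05 and 1.49 CPM in the KD libraries, and 40 of them had a KD mean under 1 CPM. At NF10 their median log2 change was 0.01. At NF24 the median was 76.9, 62.4 and 51.8 CPM in CoMo and 52.6, 55.9 and 19.8 CPM in KD. By these medians KD replicates 1 and 2 lay within the control range, and replicate 3 lay below it. Gene by gene, 85, 82 and 114 of the 116 lay below the NF24 control mean in KD replicates 1, 2 and 3. Of all 250 members 143, 174 and 192 did, and of all genes 53.2%, 52.0% and 52.2%. The NF24 control mean helped to choose the members, so part of their difference from all genes is built in. The median log2 change of the 116 was -2.93 at NF16, where low KD values had picked them, and -0.70 at NF24. Whether these sizes differ was not tested, because the contrast contains the values that chose the genes.

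The 128 members without a call at NF16 had medians of 10.8 and 10.5 CPM in the NF16 controls, 10.4 CPM in KD replicate 1 and 4.18 CPM in KD replicate 2. Replicate 1 lay with the controls and replicate 2 below them. Their NF24 medians were 45.3, 51.8 and 44.0 CPM in CoMo, against 53.9, 44.6 and 45.3 CPM in KD, so here replicate 3 did not stand apart.

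**Figure D5:**
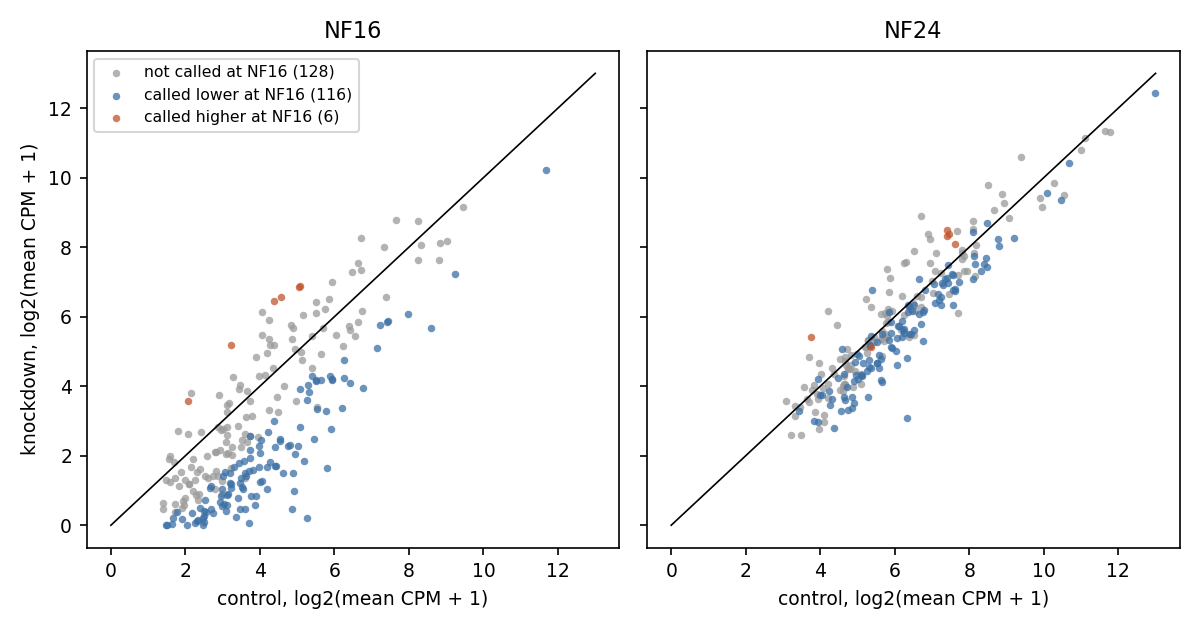
Mean level of each of the 250 genes in KD against CoMo at NF16 and NF24, as log2(mean CPM + 1), coloured by the edgeR call at NF16 (116 lower, 6 higher, 128 without a call). The diagonal marks equal levels. The genes lower at NF16 lie nearer to the diagonal at NF24, where their median log2 change is -0.70.

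The 6 members higher in KD at NF16 went the other way from most of the group. Their median was 13.8 and 28.6 CPM in CoMo, against 136 CPM in KD replicate 1 and 44.1 CPM in replicate 2. Replicate 1 was the higher one for all 6. The log2 changes lay between 1.76 and 2.13, at adjusted p from 0.0151 to 0.0425 by edgeR, and none of the 6 calls was made without NF16 CoMo replicate 1 or with all 6 groups in one fit. DESeq2 called 9 members higher, against 11.3% of all genes, scaling by total counts 9, against 11.7%, and no filter 10, against 9.51%. At NF24 the log2 changes of the 6 members ran from -0.23 to 1.74 with no call.

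The NF16 KD replicates differed more for these genes than the NF16 controls did. The KD pair also differed more in the check for repeated libraries, with a chi-square over degrees of freedom of 154.9, against 76.4 for the control pair. Replicate 1 was above replicate 2 for 190 of the 250 members, where it was above for 47.3% of all genes, and the median log2 ratio was 0.60. In the controls replicate 1 was above replicate 2 for 150 members, against 47.8% of all genes, and the median ratio of the members was 0.20. The median ratios of all genes were not obtained. In KD replicate 1, 180 members lay below both controls, against 43% of all genes, and 52 above both, against 43%. In KD replicate 2, 221 lay below both, against 43%, and 11 above both, against 41.9%. Of the 52 members above both controls in replicate 1, 38 were below the control mean in replicate 2. Of all 250 members 233 were below it there, and of all genes 51.3%. The 52 were picked for high values in replicate 1, so a lower replicate 2 is partly built in. The 14 members called at neither interval in KD are given as a description. A wide split of the NF16 KD pair makes a call at either interval less likely, so a split is partly built into this choice. All 14 were higher in replicate 1 than in replicate 2, 12 of them by more than 2-fold, and all 14 had positive steps at both intervals, with medians of 1.61 and 1.29. The 2 members called lower from NF10 to NF16 in KD rose again by NF24. One fell from a mean of 0.844 CPM to 0 reads in both NF16 KD libraries and then stood at 11.8, 13.8 and 4.56 CPM at NF24. The other went from a mean of 3.05 CPM to one of 0.494 CPM. It then stood at 53.7, 68.7 and 4.29 CPM at NF24, a mean of 42.2 CPM, with replicate 3 far below the others. The number of such lower calls depended on the fit. It was 0 with the unstranded column, against 16.9% of all genes. It was 1 with the replicate number as a block (14.3%), with all 6 groups in one fit (21.8%), and without NF10 KD replicate 2 (15.6%) or 3 (13.7%). With DESeq2 (20.6%) and RLE factors (15.7%) it stayed at 2.

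At NF10 KD and CoMo differed for 0 members at an adjusted p under 0.05 by edgeR, and for 0 of all genes (0%). An unadjusted p under 0.05 was reached by 2 members in the higher direction, against 0.367% of all genes, and by 0 in the lower, against 0.108%, and DESeq2 also called 0. The KD libraries all lay below the controls for 4 members, against 1.82%, and all above for 9, against 1.88%. The median member stood at 0.673 CPM in CoMo and 0.725 CPM in KD. Libraries with the same number deviated together at NF10 (r from 0.723 to 0.896). The fit without a block left this pairing out, and few of all genes reached an unadjusted p under 0.05 in it. Its 0 calls therefore do not show that KD and CoMo were alike. With the replicate number as a block, 0 members were called and 15 reached an unadjusted p under 0.05, all higher. Of all genes 6.37% did so in that direction and 3.16% in the other.

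At NF24 0 members differed by edgeR, again as for all genes (0%). DESeq2 called 8, of which 5 were lower (0.358% of all genes) and 3 higher (1.88%). Of the 250, 187 had a negative log2 change, where 52.4% of all genes did, and the median was -0.34. An unadjusted p under 0.05 by edgeR was reached by 33 members in the lower direction, against 3.48% of all genes, and by 11 in the higher direction, against 6.75%. With the replicate number as a block the counts were 83 and 25, against 8.36% and 10.1% of all genes, and still 0 members passed the adjusted threshold, which 0.0333% of all genes passed as higher. All KD libraries lay below all controls for 28 members (11.2%), against 7.26% of all genes, and above them for 8 (3.2%), against 8.64%. The members were chosen for high NF24 controls, so part of the lower direction is built in.

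The NF24 KD libraries did not contribute alike. Against the control mean, the median log2 ratio of the members was -0.11 in replicate 1, -0.37 in replicate 2 and -1.03 in replicate 3. Of the 250, 143, 174 and 192 lay below that mean, where 53.2%, 52.0% and 52.2% of all genes did. CoMo replicate 3, the lowest control, stood at -0.28. Against the control of the same number, the medians were -0.23, -0.30 and -0.56. The KD replicates 1 and 3 also had the highest shares of unmapped fragments at this stage, 51.2% and 40.5%, against at most 34.0% in controls, and the highest shares of mapped fragments outside genes, 52.5% and 54.2%, against at most 47.7%. The paper reports that KD caps came apart into single cells at the tailbud stage. It also reports that the profiles of these replicates were heterogeneous, which made changed genes hard to assess. The part of this, of these shares and of replicate 3 in the result was not tested.

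Genes that rose in controls by neighbouring rules are set beside the members without a test of the difference. The 201 genes that passed both thresholds with a smaller rise were called higher in KD in 42.3% at the first interval and 58.7% at the second, and lower than CoMo at NF16 in 29.4%. The 2623 genes that rose only from NF10 to NF16 were called higher in KD in 58.8% and 25.1%, and lower than CoMo at NF16 in 40.8%. For the 1132 genes that rose only from NF16 to NF24 these shares were 1.86%, 41.8% and 4.86%. Within the 250, the genes with the larger first step were lower at NF16 in 82 of 163 cases (50.3%), and those with the larger second step in 34 of 87 (39.1%). The NF16 control mean enters both steps and is also the reference for KD at NF16. Part of the differences between the shares lower at NF16 is therefore built in.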

How the data were processed

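Raw counts of fragments per gene from 16 animal cap libraries were used as deposited. The authors aligned the reads to the X. tropicalis v9.1 genome with STAR, which also made the counts over Xenbase gene models from a stranded library. The version is 2.4.2a in the submitters' processing notes, while the methods of the study name another. The files' tally of multimapping fragments is 0 in every library, so genes with near-identical copies may be undercounted. Of the 3 count columns, the strand column with the larger total was used. The members, tests and lists were chosen with earlier results of these data known.

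The filter of the study was kept (1 read or more in 75% of the libraries, here 12 of 16). Each comparison was fitted on its own libraries with edgeR 4.0.16 in R 4.3.3 (TMM factors, quasi-likelihood test, Benjamini-Hochberg adjustment over 11997 genes, threshold 0.05). The fits were run on simulated counts, drawn independently for each library, to check the direction of the called changes. Such counts lack the pairing and the uneven replicates of these data. The standard error of a log2 change was approximated as its size over the square root of F. CPM used TMM factors over all libraries. Identifiers were named by rule: the 2 highest NF24 KD levels among members rising at both intervals in KD, and the 2 smallest p among members lower at NF16, of at least 5 CPM and without overlap. Gene lists and cell type markers needed symbols and were not used here, and no gene was placed in the genome, since the symbol table is of another assembly (UCB_Xtro_10.0).

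Same-numbered CoMo and KD libraries deviated together at NF10 (r 0.859, 0.896 and 0.723) and NF24 (0.448, 0.278 and 0.588). Their numbers were therefore taken as pairs there, but the main fits had no block and did not use them. At NF16 r was -0.184, and between the KD stages it was -0.121 to 0.271. Some NF16 and NF24 files carry other numbers than the titles, whose numbers were used. No library repeated another (chi-square over degrees of freedom at least 55.5 within groups). Alternatives were DESeq2 1.42.0, RLE factors, total counts, no filter, the unstranded column, filterByExpr, one fit over all 6 groups, the replicate number as a block, leaving out each library, and other choices of members (without the limit of 250, with a pseudocount of 0.5 or 2, with RLE or total-count scaling, or without each control library).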

Additional observations from a re-analysis of the deposited data

Results flagged for a closer look

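Fragments on the strand opposite to the members were counted in a column that no comparison used. Per 1000000 assigned fragments there were 34.5 and 38.6 in the NF16 controls, and 102.1 in NF16 KD replicate 1 and 33.4 in replicate 2. The gene with most of them made up 5.89% in replicate 1, and 96.1 remained without it. At NF24 the controls had 96.1, 195.8 and 137.9, and KD replicates 1 and 3 had 291.6 and 313.7, while replicate 2 had 142.2. NF10 KD replicate 2 was at 33.16, just above the highest NF10 control at 32.6. These libraries were singled out because they exceeded every control of their stage. Over all genes the opposite strand took 1.55% and 1.45% of stranded counts in NF16 KD replicates 1 and 2, against 1.2% and 1.23% in the controls. It took 4.58% and 3.13% in NF24 KD replicates 1 and 3, against 1.76% to 4.05% in the controls. Of the members' own stranded counts it took 0.996% and 0.793% in NF16 KD replicates 1 and 2, against 0.317% and 0.376% in the controls. The part of this signal in the results was not tested.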

How the results depend on the processing

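Recomputing the 6 counts of members under the alternatives gave 161 results. In 151 the count moved by less than 1.5 times or stayed at 0, and in 10 it moved by more. When all 451 genes were taken, the rise from NF10 to NF16 in KD was called for 213, against 17.2% of all genes. The rise from NF16 to NF24 was called for 324, against 14.9%. A change at NF16 was called for 184 (175 lower, against 12.9%, and 9 higher, against 7.97%). All 6 groups in one fit gave 80 changed members at NF16 (80 lower, 0 higher). DESeq2 called 8 members at NF24. When a library was left out of the fit, the first rise ranged from 37 to 116 members, the second from 53 to 203, both together from 9 to 95, and the change at NF16 from 67 to 152. When a control library was left out of the choice of members, the ranges were 126 to 132, 189 to 212, 88 to 100 and 105 to 143. At NF10 and NF24 these counts stayed at 0. The lowest values came without NF16 KD replicate 1 (37), without NF16 KD replicate 2 (53 and 9) and without NF16 CoMo replicate 1 (67). These fits leave a group with 1 library, and the share of all genes called at a single interval or at NF16 was lower in them too. Where each group kept at least 2 libraries, the first rise was called for 110 to 116 members, against 14.4% to 16.8% of all genes. The second was called for 163 to 203, against 8.19% to 15.6%. For both intervals together the share of all genes was not obtained in these refits. The cause of the other moved counts was not tested. With the replicate number as a block, 118, 239 and 108 members rose in KD at the first, the second and both intervals. At the single intervals 1836 and 2736 of all genes did (15.3% and 22.8%), and the share at both was not obtained. At NF16 121 members were changed, 117 lower, against 11% of all genes, and 4 higher, against 5.39%. The numbers showed no clear pairing of the libraries at NF16 or between the KD stages. NF16 KD has no replicate 3, so replicate 3 of the other stage did not enter the KD changes in these block fits. At NF10 and NF24, where the numbers pair the libraries, the block left both counts at 0. With the numbers crossed at NF16, an alternative added after the data were seen, 165 members were changed. Of these 153 were lower, against 17.4% of all genes, and 12 higher, against 13.5%. Chosen again without 1 control library, the list shared between 194 and 243 of its 250 genes with the one described. Over all genes, scaling by total counts shifted the median of the first KD interval from -0.02 to -0.50 (log2), of the second from 0.07 to 0.28, and of KD against CoMo at NF16 from 0.03 to 0.18. It gave 103, 211 and 119 members, against a background of 12.6% higher and 27.1% lower, 18.5% and 9.9%, and 11.7% and 11.5% of all genes. With all 6 groups in one fit the second change of Xetrov90022696m.g was 3.21 against 3.18, with an adjusted p of 0.0532 by edgeR. Depth limits the NF10 levels, where the median member rests on a fraction of 1 CPM.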
